A study of Medicago truncatula with 4 samples.

Results

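Plant cells send short-range and long-range messages with small secreted peptides that are cut from longer precursors and read by receptor kinases at the surface of other cells. The genes described here encode such peptides outside the CLE family: C-terminally encoded peptides (CEP), root meristem growth factors, also called GOLVEN (RGF/GLV), phytosulfokines (PSK), rapid alkalinization factors (RALF), epidermal patterning factor-like peptides (EPFL), INFLORESCENCE DEFICIENT IN ABSCISSION-like peptides (IDA) and CAP-derived peptides (CAPE). CEP, RGF/GLV, PSK and IDA peptides are short, and RGF/GLV and PSK peptides carry sulfated tyrosines. RALF and EPFL peptides are longer and are held in shape by disulfide bonds between cysteines. PSK was first isolated from the medium of cultured plant cells as a factor that lets them divide at low density, and it promotes somatic embryogenesis in carrot cultures.

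The genes were chosen by the family name in the description or the symbol that the deposited annotation gives. This rule found 107 of the 52709 genes in the table, of which 105 are peptide genes. Only 3784 of the 52709 genes carry a description and 3772 a symbol, so family members without either could not be found. The other 2, *MtCEPD1* and *MtCEPD2*, carry the name of a CEP downstream factor (in *Arabidopsis* a glutaredoxin-like protein and not a peptide) and had 0 counts in all 4 libraries. No receptor was among the rows found.

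The data were polyA RNA-seq libraries of *Medicago truncatula* R108 calli on day 35 of culture, 2 biological replicates from plants overexpressing *MtWOX9-1*, a WUSCHEL-related homeobox transcription factor gene, and 2 from R108 wildtype plants. In both groups the calli grew from leaves of plants kept in soil for 35 days, spent 30 days on medium with the synthetic auxin 2,4-D at 18 μM and the cytokinin BAP at 2.22 μM, and stayed 5 more days on medium without hormones. The promoter of the transgene and the number of transgenic plants behind each library are not given in the sources used here, and no library of an empty-vector control was analysed. *MtWOX9-1* had 7692 and 7634 counts in the *MtWOX9-1*-overexpressing libraries, against 2 and 18 counts in the wildtype libraries, which follows the labels.

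Library totals ranged from 6399209 to 6666866 counts in *MtWOX9-1*-overexpressing calli and from 5241334 to 6065277 counts in wildtype calli. At this depth a gene with 0 counts could still have an expression level of up to 0.450 to 0.572 CPM (counts for every 1000000 counts of the library), the equivalent of 3 counts, a bound that covers counting error only. For genes at 0 in both wildtype libraries, a fold given as "at least" sets the mean of the *MtWOX9-1*-overexpressing libraries against this floor. Error in that mean is not covered, so the true fold can be smaller. Genes with at least 10 counts over the 4 libraries entered a two-sided quasi-likelihood test in edgeR, with p-values adjusted over all 24630 genes tested by the Benjamini-Hochberg method, and a gene was called at an adjusted p under 0.05. Normalised counts are counts scaled to a common effective library size, and fold changes are *MtWOX9-1*-overexpressing over wildtype calli. Each standard error was derived as the absolute log2 fold change divided by the square root of the F statistic of the test. It is not a separate estimate from the fit. With 2 libraries in each group, an exact permutation test of 1 gene has a smallest possible p of 0.333, so each adjusted p rests on a spread that is partly estimated from all genes.

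Markers of several cell types differed between the groups and stand beside every result below. All 10 genes described as root cap genes were called higher, with summed normalised counts of 8967 and 13682 in *MtWOX9-1*-overexpressing libraries and of 32.3 and 189 in wildtype libraries. Of 5 embryo genes, 4 were called higher and 1 lower, with sums of 2190 and 1928 in *MtWOX9-1*-overexpressing libraries against 294 and 371 in wildtype libraries. The gene called lower, *MtLEA*, had 18 and 46 counts in *MtWOX9-1*-overexpressing libraries against 264 and 198 in wildtype libraries. It held most of the wildtype counts of this list. Of 10 genes in the root meristem list, chosen by symbols and keywords, 6 were called higher and 1 lower among 9 tested. Their sums were 4417 and 3521 in *MtWOX9-1*-overexpressing libraries against 254 and 596 in wildtype libraries. The gene called lower, *MtSCL23*, and the untested *MtSCL2* are described as SCARECROW-like and entered by that keyword. *MtPLT4* (also *MtBBM*), with 1241 and 958 counts in *MtWOX9-1*-overexpressing libraries against 9 and 90 in wildtype libraries, is in both the embryo and the root meristem list and enters both sums. *MtPM25*, *MtLEA4-5* and *MtRC4* were at 0 in both wildtype libraries, and *MtSCL2* was at 0 in all 4. The leaf list held 1 gene, *MtRCA* (Rubisco activase), which was not called and had counts in every library. The part of cell composition in the results was not tested, and in bulk samples fewer cells of a type and less RNA per cell cannot be told apart.

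Of the 107 genes, 44 (41.1%) had 0 counts in all 4 libraries, against 39.8% of all genes in the table. A further 22 had between 1 and 9 counts in total and were not tested. Of these, 9 had counts in *MtWOX9-1*-overexpressing calli alone, 4 in wildtype calli alone and 9 in both groups. The same split over all genes was not counted, and the *MtWOX9-1*-overexpressing libraries had the higher totals, so it is not read as a result about the members. The remaining 41 genes (38.3%, against 46.7% of all genes) were tested, with a median expression level of 36.3 normalised counts against 74.6 over all genes tested. Each *MtWOX9-1*-overexpressing library held reads of 52 members, and the wildtype libraries held reads of 42 and 40. Over all genes, the *MtWOX9-1*-overexpressing libraries held reads of 27448 and 27648 genes, and the wildtype libraries, with lower totals, of 26168 and 26442.

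Of the 41 tested peptide genes, 29 (70.7%) were called, where 39.2% of all genes tested were. The expression level of 13 was higher (31.7%, against 20.2% of all genes) and of 16 lower (39.0%, against 18.9%) in *MtWOX9-1*-overexpressing calli. The share was also 66.7% (20 of 30) among members with a mean under 100 normalised counts, where 33.6% of all such genes were called. The median absolute log2 fold change of the tested members was 1.64, against 0.62 over all genes (1.56 against 0.62 with genes at 0 in both libraries of a group set at their bound), while the median signed log2 fold change was -0.28, against 0.04 over all genes. The 2 groups of libraries did not overlap in 37 of 41 members (90.2%), which held for 75.1% of all genes tested. These counts describe the list as chosen and carry no test of their own, and a gene with 0 counts in wildtype calli passed the count minimum only through its reads in *MtWOX9-1*-overexpressing calli. The members are all named genes, while most genes tested carry no description.

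**Figure D1:**
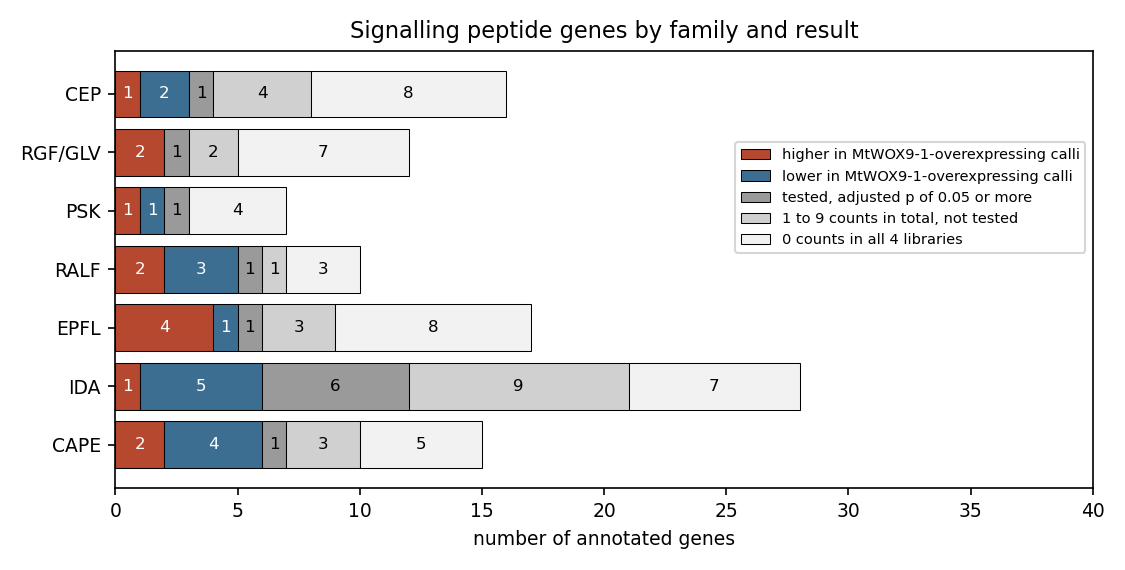
Number of annotated signalling peptide genes (x axis) in each of 7 families, split by result: called (adjusted p under 0.05) with a higher or lower level in *MtWOX9-1*-overexpressing calli, tested and not called, 1 to 9 counts in total, or 0 counts in all 4 libraries. EPFL has the most genes called higher (4 of 6 tested), IDA the most called lower (5 of 12 tested), and RGF/GLV none called lower.

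All families except RGF/GLV held called members of both directions. Genes that were near 0 in wildtype calli and clearly detected in *MtWOX9-1*-overexpressing calli came from several families. At least 10 counts in each *MtWOX9-1*-overexpressing library and at most 3 in each wildtype library were found for 6 of the 41 tested members (14.6%), against 2.90% of all genes tested, among them *MtGLV14*, *MtPSK7*, *MtRALF11*, *MtEPFL6* and *MtEPFL7*. The opposite pattern was seen in 1 member, *MtIDA17*. In all, 15 members had reads in *MtWOX9-1*-overexpressing calli and 0 counts in both wildtype libraries, of which 6 reached the count minimum, each through its reads in *MtWOX9-1*-overexpressing calli alone. Of all 24630 genes tested, 884 were at 0 in both wildtype libraries. At 0 in both *MtWOX9-1*-overexpressing libraries were 0 of the 41 tested members and 398 of all genes tested. For the pattern of *MtIDA17* and for the 15 members, the share over all genes was not counted.

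**Figure D2:**
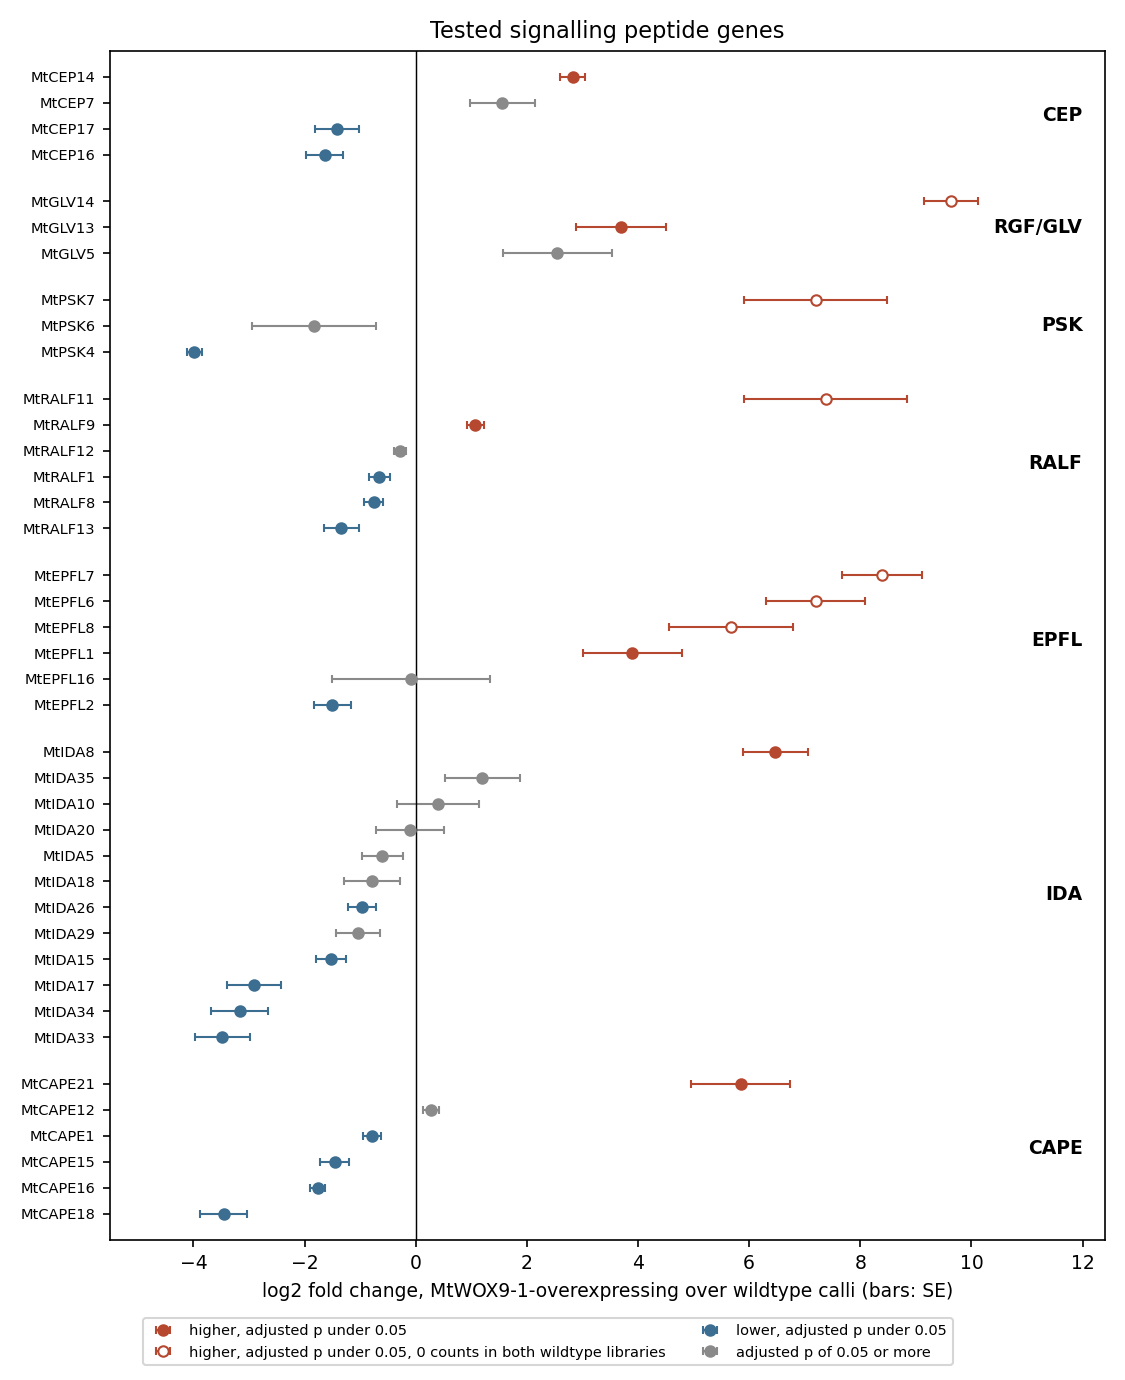
Log2 fold change of *MtWOX9-1*-overexpressing over wildtype calli (x axis, bars are standard errors derived from the F statistic of the test) for tested signalling peptide genes, grouped by family. The 6 open circles are genes with 0 counts in both wildtype libraries, for which the fitted value depends on the method's prior count and is not a measured fold. Their bars depend on the prior count as well. Called genes on the left reach -3.98 (*MtPSK4*), and the highest called gene with wildtype counts reaches 6.47 (*MtIDA8*).

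RGF/GLV peptides keep the root stem cell niche active in *Arabidopsis*, where they act on the level of the PLETHORA transcription factors. Of 12 genes, 7 had 0 counts throughout and 3 were tested, and all 3 were above wildtype in both *MtWOX9-1*-overexpressing libraries. *MtGLV14* (also *MtRGF8*, MtrunA17Chr8g0366061) had 114 and 108 counts in *MtWOX9-1*-overexpressing libraries, against 0 and 0 counts in wildtype libraries. The replicates were close and the groups far apart: its normalised counts were 99.1 ± 1.87 (SD, n = 2) in *MtWOX9-1*-overexpressing calli and 0 in wildtype calli, at least 29.0-fold higher when 3 counts per library are taken as the floor (adjusted p = 0.0027).

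*MtGLV13* (also *MtRGF2*, MtrunA17Chr4g0012001) had 53 and 50 counts in *MtWOX9-1*-overexpressing libraries, against 0 and 6 in wildtype libraries. The groups did not overlap, and the gene was called higher (log2 fold change 3.69, standard error 0.81, adjusted p = 0.023), but not with replicate number as a block (adjusted p = 0.060). The call was lost without *MtWOX9-1*-overexpressing replicate 1 or 2 (adjusted p = 0.084 and 0.075), and the log2 fold change lay between 2.65 and 8.61 with each library left out. *MtGLV5* (also *MtRGF5*, MtrunA17Chr5g0420511) had 31 and 46 counts in *MtWOX9-1*-overexpressing libraries and 0 and 10 in wildtype libraries. Its 2 groups did not overlap either, but it did not pass the test (log2 fold change 2.55, standard error 0.98, adjusted p = 0.099), except without wildtype replicate 2 (adjusted p = 0.0070). Summed over the family, normalised counts were 174 and 186 in *MtWOX9-1*-overexpressing libraries, against 4.31 and 19.3 in wildtype libraries. The PLETHORA genes are part of the root meristem markers given above, and their relation to the RGF/GLV genes was not tested.

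EPFL peptides bind receptor kinases of the ERECTA family and set the spacing of stomata and the growth of stems and organ primordia in *Arabidopsis*. Of 17 genes, 8 had 0 counts throughout and 6 were tested, with 4 called higher, 1 lower and 1 not called. *MtEPFL7* (MtrunA17Chr2g0333071) had 53 and 41 counts in *MtWOX9-1*-overexpressing libraries, against 0 and 0 in wildtype libraries. It was at least 12.2-fold higher against 3 counts per library (adjusted p = 0.0048), with 41.9 ± 6.76 normalised counts (SD, n = 2) in *MtWOX9-1*-overexpressing calli. *MtEPFL6* (MtrunA17Chr2g0330071), also on chromosome 2 by its ID, showed the same pattern at a lower count.

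*MtEPFL6* had 23 and 18 counts in *MtWOX9-1*-overexpressing libraries and 0 and 0 in wildtype libraries, which is at least 5.34-fold higher (adjusted p = 0.0092). *MtEPFL8* (MtrunA17Chr3g0123851), with 8 and 6 counts in *MtWOX9-1*-overexpressing libraries and again 0 and 0 in wildtype libraries, was at least 1.82-fold higher (adjusted p = 0.025). *MtEPFL8* was not called by DESeq2 (adjusted p = 0.20) or by edgeR with replicate number as a block (adjusted p = 0.077). It had no adjusted p with the filterByExpr filter or without *MtWOX9-1*-overexpressing replicate 1 or 2. *MtEPFL1* (MtrunA17Chr7g0234251) had 29 and 51 counts in *MtWOX9-1*-overexpressing libraries, against 0 and 4 in wildtype libraries, without overlap (log2 fold change 3.90, standard error 0.89, adjusted p = 0.026). Its call was lost without *MtWOX9-1*-overexpressing replicate 1 or 2 (adjusted p = 0.054 and 0.099), and its log2 fold change lay between 2.86 and 8.25 with each library left out.

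*MtEPFL2* (MtrunA17Chr1g0204791), which had the highest mean of normalised counts over the 4 libraries among the EPFL genes, was called lower. It had 15 and 12 counts in *MtWOX9-1*-overexpressing libraries, against 26 and 34 in wildtype libraries (log2 fold change -1.50, standard error 0.34, adjusted p = 0.024). This call was lost with DESeq2 (adjusted p = 0.15) and with replicate number as a block in edgeR (adjusted p = 0.064). It was also lost without *MtWOX9-1*-overexpressing replicate 1 or 2 or wildtype replicate 2. *MtEPFL16* had 2 and 9 counts in *MtWOX9-1*-overexpressing libraries and 0 and 9 in wildtype libraries, so the groups overlapped (adjusted p = 0.97). Over the whole family, normalised counts summed to 121 and 127 in *MtWOX9-1*-overexpressing libraries, against 36.6 and 61.4 in wildtype libraries.

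Of 7 PSK genes, 4 had 0 counts throughout and 3 were tested, and those called moved in opposite directions. *MtPSK4* (MtrunA17Chr1g0152281) had 54 and 58 counts in *MtWOX9-1*-overexpressing libraries, against 724 and 669 in wildtype libraries. The gene had the lowest log2 fold change among the tested members (-3.98, standard error 0.13, adjusted p = 0.0025), with 50.03 ± 3.49 normalised counts in *MtWOX9-1*-overexpressing calli and 792 ± 18.2 in wildtype calli (SD, n = 2 each), a 15.8-fold lower expression level. Both pairs of replicates were tight, and the log2 fold change stayed between -4.06 and -3.91 with each library left out.

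*MtPSK7* (MtrunA17Chr8g0382911) had 29 and 12 counts in *MtWOX9-1*-overexpressing libraries and 0 and 0 in wildtype libraries. It was at least 5.32-fold higher (adjusted p = 0.020), a call that was lost without *MtWOX9-1*-overexpressing replicate 1 (adjusted p = 0.057). *MtPSK6* had 0 and 12 counts in *MtWOX9-1*-overexpressing libraries, against 15 and 19 in wildtype libraries, and did not pass the test (adjusted p = 0.25). The family's summed normalised counts therefore followed *MtPSK4*, with 73.1 and 74.2 in *MtWOX9-1*-overexpressing libraries against 796 and 828 in wildtype libraries.

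CEP peptides shape root and nodule number in *M. truncatula*, where they act through the receptor kinase CRA2. Of 16 CEP genes, 8 had 0 counts throughout, 4 had fewer than 10 counts, and 4 were tested. A run of 7 CEP genes with neighbouring IDs on chromosome 8 had few reads: 5 had 0 counts in all libraries, and *MtCEP7* alone was tested. *MtCEP7* had 8 and 15 counts in *MtWOX9-1*-overexpressing libraries, against 3 and 3 in wildtype libraries, and did not pass the test (log2 fold change 1.56, standard error 0.59, adjusted p = 0.095).

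*MtCEP14* (MtrunA17Chr8g0379531), on the same chromosome outside that run, had 137 and 108 counts in *MtWOX9-1*-overexpressing libraries, against 15 and 12 in wildtype libraries. The groups were well separated, and the gene was called 7.08-fold higher (log2 fold change 2.82, standard error 0.23, adjusted p = 0.0029), with 109 ± 16.2 normalised counts in *MtWOX9-1*-overexpressing calli and 15.3 ± 1.21 in wildtype calli (SD, n = 2 each). The other called CEP genes were lower. *MtCEP16* (MtrunA17Chr3g0128851) had 18 and 31 counts in *MtWOX9-1*-overexpressing libraries, against 55 and 65 in wildtype libraries (log2 fold change -1.64, standard error 0.34, adjusted p = 0.019), and its call was lost without *MtWOX9-1*-overexpressing replicate 1 (adjusted p = 0.055). *MtCEP17* (MtrunA17Chr2g0284361), the CEP gene with the most reads, had 119 and 66 counts in *MtWOX9-1*-overexpressing libraries and 264 and 129 in wildtype libraries, where the wildtype replicates differed by more than the gap between the groups. It was called (log2 fold change -1.42, standard error 0.40, adjusted p = 0.044), but not with library size as the only scaling (adjusted p = 0.053), with a minimum of 1 count (0.079), or without *MtWOX9-1*-overexpressing replicate 1 or 2 or wildtype replicate 1 (adjusted p = 0.058, 0.14 and 0.12).

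RALF peptides raise the pH outside the cell and slow cell expansion, and they are bound by FERONIA and related receptor kinases in *Arabidopsis*. Of 10 RALF genes, 3 had 0 counts throughout and 6 were tested, with 2 called higher and 3 lower. *MtRALF9* (MtrunA17Chr5g0402121) had 234 and 257 counts in *MtWOX9-1*-overexpressing libraries, against 105 and 79 in wildtype libraries, a 2.10-fold higher expression level (log2 fold change 1.07, standard error 0.15, adjusted p = 0.0077). *MtRALF11* (MtrunA17Chr7g0269131) had 12 and 34 counts in *MtWOX9-1*-overexpressing libraries and 0 and 0 in wildtype libraries. It was at least 6.04-fold higher (adjusted p = 0.026), but the *MtWOX9-1*-overexpressing replicates differed widely and the call was lost without replicate 2 of them (adjusted p = 0.052).

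The 3 RALF genes called lower had log2 fold changes between -1.34 and -0.65. *MtRALF13* (MtrunA17Chr8g0378021) had 13 and 10 counts in *MtWOX9-1*-overexpressing libraries, against 26 and 20 in wildtype libraries (log2 fold change -1.34, standard error 0.32, adjusted p = 0.030). *MtRALF8* (MtrunA17Chr4g0067331) had 170 and 153 counts in *MtWOX9-1*-overexpressing libraries and 255 and 176 in wildtype libraries (log2 fold change -0.76, standard error 0.17, adjusted p = 0.024). *MtRALF1* (MtrunA17Chr3g0121871) had 54 and 46 counts in *MtWOX9-1*-overexpressing libraries and 69 and 55 in wildtype libraries (log2 fold change -0.65, standard error 0.19, adjusted p = 0.047). None of these 3 genes overlapped between the groups after scaling, yet none was called by DESeq2 (adjusted p = 0.26, 0.060 and 0.37), and *MtRALF1* and *MtRALF13* lost their call whichever library was left out, with an adjusted p between 0.059 and 0.19. *MtRALF8* was called without wildtype replicate 2, but not without wildtype replicate 1 (adjusted p = 0.088) or without *MtWOX9-1*-overexpressing replicate 1 or 2 (adjusted p = 0.075 and 0.090). The RALF gene with the most reads, *MtRALF12* (MtrunA17Chr7g0272541), had 274 and 257 counts in *MtWOX9-1*-overexpressing libraries, against 266 and 241 in wildtype libraries, and was not called (log2 fold change -0.28, standard error 0.11, adjusted p = 0.11).

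IDA peptides trigger the separation of cells when organs are shed and when lateral roots emerge in *Arabidopsis*, where they are read by the receptor kinases HAESA and HAESA-LIKE2. This was the largest family in the annotation, with 28 genes, of which 7 had 0 counts throughout, 9 had fewer than 10 counts, and 12 were tested. Of the 12, 5 were called lower and 1 higher. The gene that was higher, *MtIDA8* (MtrunA17Chr2g0286011), had 213 and 265 counts in *MtWOX9-1*-overexpressing libraries, against 0 and 4 in wildtype libraries. It was the IDA gene with the most reads, nearly all of them from *MtWOX9-1*-overexpressing calli. Its normalised counts were 214 ± 37.0 in *MtWOX9-1*-overexpressing calli and 2.41 ± 3.40 in wildtype calli (SD, n = 2 each). The difference was called (log2 fold change 6.47, standard error 0.58, adjusted p = 0.0033), and the log2 fold change lay between 5.44 and 10.82 with each library left out.

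*MtIDA33* (MtrunA17Chr3g0083071) had 8 and 16 counts in *MtWOX9-1*-overexpressing libraries, against 77 and 133 in wildtype libraries (log2 fold change -3.48, standard error 0.49, adjusted p = 0.0076). *MtIDA34* (MtrunA17Chr3g0083271), with an ID on chromosome 3 as well, had 9 and 8 counts in *MtWOX9-1*-overexpressing libraries and 40 and 80 in wildtype libraries (log2 fold change -3.17, standard error 0.52, adjusted p = 0.010). For both genes wildtype replicate 2 was well above wildtype replicate 1, and neither *MtWOX9-1*-overexpressing library came near them. With each library left out, the log2 fold change of *MtIDA33* lay between -4.08 and -2.93, and that of *MtIDA34* lay between -3.65 and -2.48, with its call lost without *MtWOX9-1*-overexpressing replicate 1 (adjusted p = 0.051).

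*MtIDA17* (MtrunA17Chr8g0384031) had 3 and 2 counts in *MtWOX9-1*-overexpressing libraries, against 18 and 13 in wildtype libraries (log2 fold change -2.91, standard error 0.48, adjusted p = 0.011), and was not called by DESeq2 (adjusted p = 0.061). *MtIDA15* (MtrunA17Chr6g0463431) had 16 and 17 counts in *MtWOX9-1*-overexpressing libraries and 44 and 31 in wildtype libraries (log2 fold change -1.52, standard error 0.27, adjusted p = 0.013). *MtIDA26* (MtrunA17Chr1g0168241) had 27 and 28 counts in *MtWOX9-1*-overexpressing libraries and 38 and 46 in wildtype libraries (log2 fold change -0.96, standard error 0.26, adjusted p = 0.038). The replicates of *MtWOX9-1*-overexpressing calli were nearly equal for all 3 genes and below both wildtype libraries. *MtIDA15* was not called by DESeq2 (adjusted p = 0.090), nor without *MtWOX9-1*-overexpressing replicate 1 or wildtype replicate 1 (adjusted p = 0.058 and 0.054), and *MtIDA26* lost its call under most alternatives, with an adjusted p of up to 0.27. The 6 IDA genes that were tested and not called had adjusted p values between 0.097 and 0.92, and the groups overlapped in 3 of them.

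CAPE peptides are cut from the C-terminus of secreted CAP proteins of the pathogenesis-related 1 (PR-1) type and act as a wound and immune signal in tomato. Since the reads come from the whole precursor, the counts describe the PR-1-type gene and not the amount of released peptide. Of 15 genes, 5 had 0 counts throughout and 7 were tested, with 4 called lower and 2 higher. *MtCAPE21* (MtrunA17Chr4g0049151) had 1934 and 2494 counts in *MtWOX9-1*-overexpressing libraries, against 3 and 56 in wildtype libraries. Both *MtWOX9-1*-overexpressing libraries were far above the higher wildtype library, with 1980 ± 392 normalised counts in *MtWOX9-1*-overexpressing calli and 35.3 ± 45.4 in wildtype calli (SD, n = 2 each), and the gene was called higher (log2 fold change 5.85, standard error 0.89, adjusted p = 0.0090). As the wildtype replicates differed so much, the log2 fold change lay between 4.87 and 9.21 with each library left out.

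Among genes called higher with some wildtype counts, wildtype replicate 2 had more normalised counts than wildtype replicate 1 in 4 of 7 members and in 3217 of 4232 genes overall (76.0%). The summed markers of the root cap, embryo, root meristem and leaf lists were each also higher in wildtype replicate 2.

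The CAPE genes that were lower included ones with many reads. *MtCAPE18* (MtrunA17Chr4g0072791) had 20 and 7 counts in *MtWOX9-1*-overexpressing libraries, against 140 and 96 in wildtype libraries (log2 fold change -3.46, standard error 0.42, adjusted p = 0.0055). *MtCAPE15* (also *MtPR-1*, MtrunA17Chr4g0072781), with the neighbouring ID on chromosome 4, had 1167 and 1016 counts in *MtWOX9-1*-overexpressing libraries and 3077 and 1684 in wildtype libraries (log2 fold change -1.46, standard error 0.26, adjusted p = 0.014). Both genes were lower in each *MtWOX9-1*-overexpressing library than in either wildtype library. The call of *MtCAPE15* was lost without *MtWOX9-1*-overexpressing replicate 1 or 2 (adjusted p = 0.056 and 0.062), and the log2 fold change of *MtCAPE18* lay between -4.36 and -2.91 with each library left out.

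*MtCAPE16* (MtrunA17Chr5g0403201) had 102 and 102 counts in *MtWOX9-1*-overexpressing libraries, against 305 and 241 in wildtype libraries, a 3.39-fold lower expression level (log2 fold change -1.76, standard error 0.13, adjusted p = 0.0027). *MtCAPE1* (MtrunA17Chr2g0280281) had 1295 and 1069 counts in *MtWOX9-1*-overexpressing libraries and 1825 and 1387 in wildtype libraries (log2 fold change -0.79, standard error 0.16, adjusted p = 0.017). It was the only tested gene of 6 CAPE genes with close IDs on chromosome 2, and its call was lost without *MtWOX9-1*-overexpressing replicate 2 or wildtype replicate 1 (adjusted p = 0.066 and 0.055). *MtCAPE12* (MtrunA17Chr2g0295371), the CAPE gene with the most reads, had 3182 and 3599 counts in *MtWOX9-1*-overexpressing libraries, against 2462 and 1967 in wildtype libraries, and was not called (log2 fold change 0.27, standard error 0.15, adjusted p = 0.20). Summed over the CAPE genes, normalised counts were 6802 and 7516 in *MtWOX9-1*-overexpressing libraries and 8415 and 6538 in wildtype libraries, so the sums overlapped although 6 of the 7 tested genes were called.

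**Figure D3:**
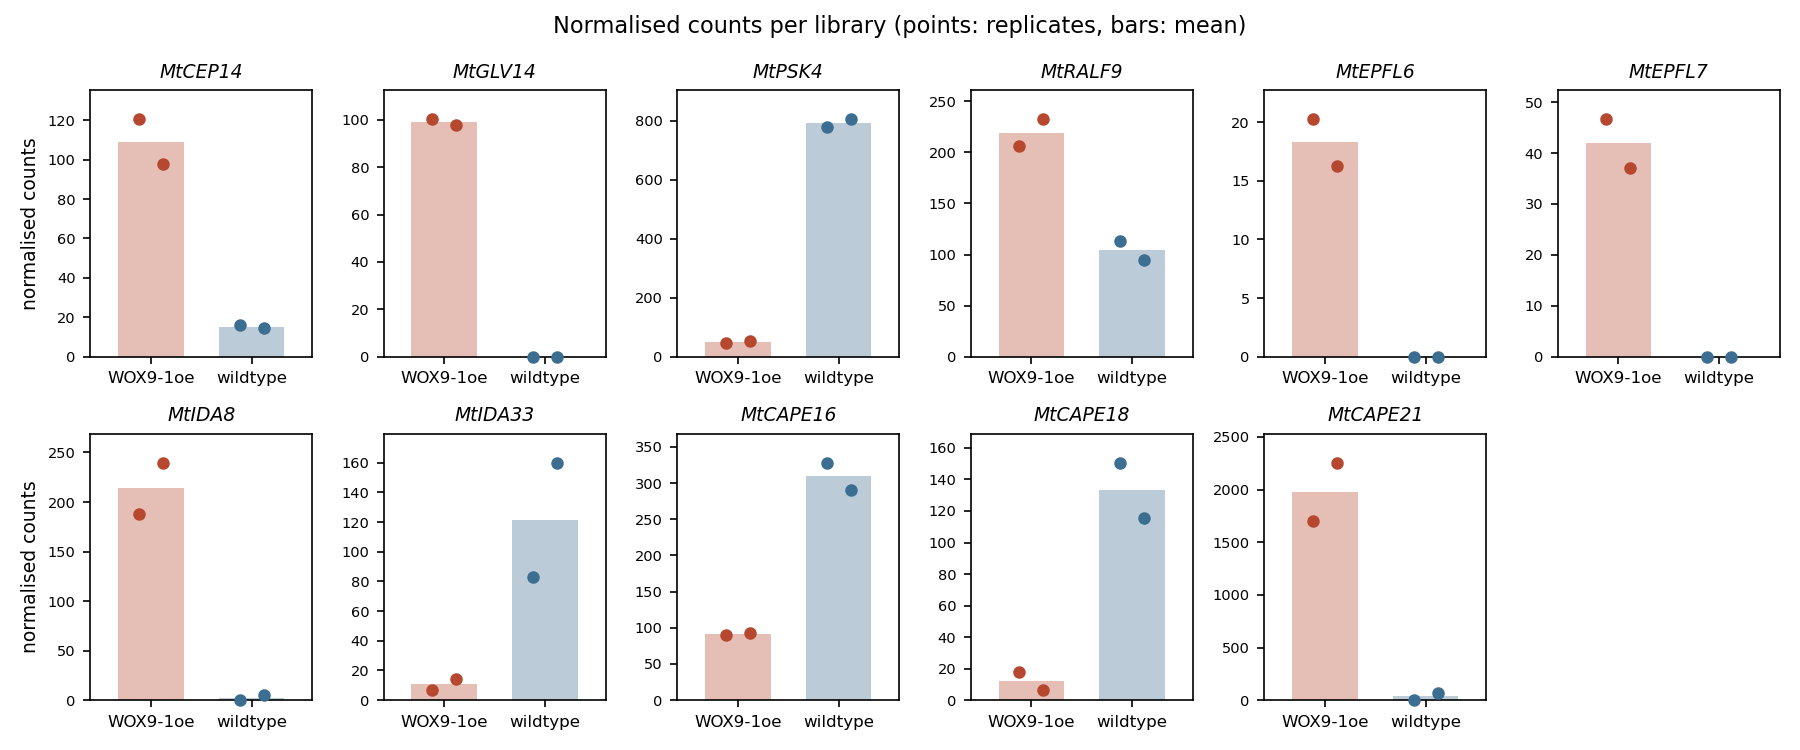
Normalised counts per library (y axis, each panel with its own scale from 0) for the 11 signalling peptide genes called under every alternative tried at an adjusted p under 0.05, with *MtWOX9-1*-overexpressing calli (WOX9-1oe) on the left and wildtype calli on the right, points for replicates and bars for means. The 2 groups are apart in every panel, from *MtRALF9*, 2.10-fold higher, to *MtGLV14*, *MtEPFL6* and *MtEPFL7*, which had 0 counts in wildtype calli, while *MtPSK4* was 15.8-fold lower in *MtWOX9-1*-overexpressing calli.

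Across families, 11 of the 29 called genes kept their call under every alternative tried, including the stricter adjusted p under 0.01. Higher among them were *MtCEP14*, *MtGLV14*, *MtRALF9*, *MtEPFL6*, *MtEPFL7*, *MtIDA8* and *MtCAPE21*, and lower were *MtPSK4*, *MtIDA33*, *MtCAPE16* and *MtCAPE18*. The other 18 lost their call under at least 1 alternative, mostly when 1 library of *MtWOX9-1*-overexpressing calli was left out, and none of the 29 changed direction under any.

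On the side of perception and maturation, keywords for receptors, sulfotransferases, hydroxylases and proteases found 17 genes. Of these, 11 matched the word subtilisin and are subtilisin inhibitors or *MtSUBPEP*. No description matched a PSK, RALF, EPFL, IDA or RGF receptor, a sulfotransferase, a prolyl hydroxylase or a protease that cuts precursors. Only 3784 of the 52709 genes carry a description, so a missing match does not show that such genes are absent or without reads. Of 11 tested, 4 (36.4%, against 39.2% of all genes tested) were called by edgeR's test, 4 lower and 0 higher, with 1 higher at an unadjusted p under 0.05 and 0 higher with DESeq2. The subtilisin matches gave 3 of these calls among 7 tested, and the other 6 genes gave 1 among 4 tested (25%). *MtRDN3*, a member of the family of enzymes that add arabinose to hydroxyproline in peptides, had 590 and 625 counts in *MtWOX9-1*-overexpressing libraries, against 1042 and 852 in wildtype libraries (log2 fold change -0.98, standard error 0.12, adjusted p = 0.0057). *MtRDN2*, of the same family, had 153 and 155 counts in *MtWOX9-1*-overexpressing libraries and 94 and 90 in wildtype libraries, and was not called (log2 fold change 0.39, standard error 0.13, adjusted p = 0.074).

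The CEP receptor gene *MtCRA2* was barely detected, with 0 and 0 counts in *MtWOX9-1*-overexpressing libraries and 2 and 0 in wildtype libraries, and was not tested. The other 3 called genes, *MtSubIn7*, *MtSubIn8* and *MtSUBPEP*, matched the word subtilisin. *MtSubIn7* and *MtSubIn8* are described as subtilisin inhibitors and not as enzymes that cut precursors. *MtSubIn7* had 4 and 6 counts in *MtWOX9-1*-overexpressing libraries, against 23 and 15 in wildtype libraries (adjusted p = 0.017). *MtSubIn8* had 0 and 7 counts in *MtWOX9-1*-overexpressing libraries, against 43 and 22 in wildtype libraries (adjusted p = 0.039). *MtSUBPEP*, named like a signal peptide that lies within a subtilisin-type protease in soybean, had 70 and 105 counts in *MtWOX9-1*-overexpressing libraries and 161 and 135 in wildtype libraries (adjusted p = 0.021).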

How the data were processed

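PolyA RNA was sequenced from 2 *MtWOX9-1*-overexpressing and 2 wildtype callus samples. Gene IDs are of MtrunA17r5.0-ANR. The table deposited by the authors holds raw counts of reads in whole numbers for each gene in each library. The submitters' processing notes name Trimmomatic, HISAT2, StringTie and DESeq without versions, and the handling of strand and of reads that map to several genes is not given in the sources used here, so reads of near-identical family members could be split or lost. A second deposited table gave gene names and, from the authors, a scaled signal equal to each count times a library constant. That table also holds the authors' fold changes, standard errors and p-values, which were not used. Columns of counts left unused numbered 0.

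The counts were fitted with edgeR 4.0.16 under R 4.3.3: at least 10 counts over the 4 libraries, TMM scaling, and the quasi-likelihood test on condition alone, with a common dispersion of 0.0284, after the fit was tested on simulated data. Alternatives were library size as the only scaling, DESeq2 1.42.0, edgeR with the size factors of DESeq2, filterByExpr, a minimum of 1 count, the replicate block, an adjusted p under 0.01, and each library left out. For a fold against 2 libraries at 0, the mean of the other group was set against 3 counts per library, without allowance for the spread of that mean.

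The members, the lists and the naming rule were chosen with earlier results of these data known. Named were members called, members at most at 3 counts in one group and at least at 10 in the other, the member with the highest mean normalised count in each family, and called genes of the pathway list. *MtCEP7*, *MtGLV5*, *MtPSK6*, *MtEPFL16*, *MtRDN2* and *MtCRA2* are outside that rule, picked with their values in view. The values of 1 called member are not reported here and are left out of the plot of fold changes. Gene IDs give the chromosome. Positions and sequences were not used here.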

Additional observations from a re-analysis of the deposited data

How the results depend on the processing

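Of 29 called members, 29 remained with DESeq2's size factors, 28 with filterByExpr, 26 with library size alone and 26 with a minimum of 1 count. DESeq2 called 20. Called members numbered 14 to 26 with each library left out, the lowest without *MtWOX9-1*-overexpressing replicate 1 (of the 18 called without its replicate 2, 16 were among the 29), and 11 at an adjusted p under 0.01. Members called higher were 13, 8 to 14 with each library left out and 7 at 0.01. Members called lower were 16, 9 with DESeq2, 6 to 12 with each library left out and 4 at 0.01. Over all genes, 9645 calls became 5631 to 8323 with each library left out and 3930 at 0.01, while DESeq2 called 6432. The 4 calls of the receptor and processing list, 3 of them matches of the word subtilisin, became 2 with DESeq2, 2 with the replicate block and 1 at 0.01. *MtGLV5* gained a call without wildtype replicate 2. With 1 library left in a group, that library is assumed to vary like the others. Which property of the libraries lowers these counts was not tested.

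Samples with the same replicate number did not deviate together across genes (correlation of log2 differences between replicates -0.03 across 14400 genes). A shared batch that acts on few genes, or differently in each group, would not show in this value. With the replicate block, 22 members were called, 10 higher and 12 lower, and 6668 genes in all. Library size as the only scaling moved the log2 fold change of all genes by a median of 0.14, and no called member changed sign.

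With 3 counts worth 0.450 to 0.572 CPM, genes with 0 counts cannot be called silent, and members with few reads cannot show small changes. Without transcript lengths, levels were not compared between genes.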

Other observations

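Secreted or small peptide families outside the rule were described after their values were seen. Their calls stand beside 39.2% of all genes tested, and their calls under the alternatives are not given here. Of 10 genes for peptides containing sulfated tyrosine (PSY), which promote cell expansion in *Arabidopsis*, 5 were tested, and 2 were called higher and 2 lower by edgeR's quasi-likelihood test. *MtPSY1* had 32 and 36 counts in *MtWOX9-1*-overexpressing libraries, against 0 and 0 in wildtype libraries (adjusted p = 0.0057). *MtPSY10* had 49 and 47 counts in *MtWOX9-1*-overexpressing libraries, against 0 and 3 in wildtype libraries (adjusted p = 0.010). Both directions were present here too: *MtPSY9*, the PSY gene with the most reads, had 465 and 626 counts in *MtWOX9-1*-overexpressing libraries and 1025 and 723 in wildtype libraries (adjusted p = 0.020), and *MtPSY8* had 0 and 0 counts in *MtWOX9-1*-overexpressing libraries and 10 and 6 in wildtype libraries (adjusted p = 0.017).

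Of 14 ROTUNDIFOLIA/DEVIL genes, small peptides that restrict organ growth when overexpressed in *Arabidopsis*, 6 were tested, with 3 called higher and 1 lower. *MtRTFL/DVL_14* had 17 and 41 counts in *MtWOX9-1*-overexpressing libraries and 0 and 0 in wildtype libraries (adjusted p = 0.018). Of 9 genes for PAMP-induced secreted peptides, 3 were tested and 1, *MtPIP10*, was called lower, with 51 and 50 counts in *MtWOX9-1*-overexpressing libraries against 164 and 75 in wildtype libraries (adjusted p = 0.025).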
